A study of Mus musculus with 12 samples.

Results

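Glial cells that carried both reporters of an Aldh1L1-GFP/Olig2-tdTomato mouse line were compared, gene by gene, with cells sorted into the tdTomato fraction of the same line. The comparison takes 8 of the 12 libraries of the series, 4 of the eGFP/tdTomato fraction and 4 of the tdTomato fraction, each numbered 1, 2, 3 and 5. The libraries were taken by the fraction named in the sample labels, and no measured value was used to choose them. All 8 libraries came from the spinal cord of C57BL/6 mice at postnatal day 7, were restricted to the brachial and thoracic levels, and shared the reporter genotype. No treatment is named for either group. The tissue was digested with papain, the cells were sorted on a FACS Aria, and total RNA was sequenced on a BGISEQ-500. The labels name each library a biological replicate but give neither the sort gates nor the animals behind a library, so the p-values below measure the spread among these libraries. They also do not say whether the tdTomato reports present or past activity of Olig2, or in which cells besides the oligodendrocyte lineage it is active.

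Astrocytes take up transmitters and potassium, are joined to one another by gap junctions and send endfeet rich in water channels to blood vessels. Oligodendrocytes wrap axons in myelin, a stack of membrane rich in cholesterol and galactolipids, and pass from a dividing progenitor through a short-lived differentiating stage to the myelinating cell. Both kinds of glia arise from the same germinal zone of the spinal cord, and the basic helix-loop-helix factor Olig2 is used in the ventral part of that zone and throughout the oligodendrocyte lineage. Aldh1l1, a folate enzyme, is a general marker of astrocytes.

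Levels are CPM, counts scaled to a common library total with edgeR's TMM factors, given as mean ± SD of 4 libraries, and every fold change is the eGFP/tdTomato level over the tdTomato level. A gene is called when its p-value in edgeR's quasi-likelihood test, adjusted by the Benjamini-Hochberg method over all 17425 genes tested, is under 0.05. Reads counted in genes came to 23915784 to 30299452 per library in the eGFP/tdTomato fraction and 25460920 to 36505583 in the tdTomato fraction. Reads that fell outside annotated genes made up 25.6 to 42.5% of the reads in the eGFP/tdTomato files and 21.2 to 31.5% in the tdTomato files. The 2 ranges overlap, but the percentage was higher in the eGFP/tdTomato library at each of the 4 replicate numbers. The part of this difference in the results was tested only by adding the percentage to the fit as a covariate. That fit called 4208 genes higher and 3669 lower, and it kept 77.7% of the calls made without the covariate.

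The 2 genes that name the reporters differed between the fractions in the direction of the sort. Aldh1l1 stood at 514, 591, 833 and 724 CPM in eGFP/tdTomato replicates 1, 2, 3 and 5, and at 3.51, 2.29, 1.97 and 6.7 CPM in the tdTomato replicates of the same numbers. Olig2 stood at 40.1, 53.3, 96.7 and 83.3 CPM in the eGFP/tdTomato libraries and at 253, 164, 314 and 237 CPM in the tdTomato libraries. Olig2 RNA was thus present in all 4 double-reporter libraries, at 28.2% of the tdTomato mean. These transcripts bear on the gates themselves and are given as a description of the sort.

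The sort label was checked against the defining markers of both kinds of glia. Gja1, the main connexin of astrocyte gap junctions, was at 6677, 5423, 5572 and 4712 CPM in the eGFP/tdTomato libraries and at 10.4, 6.48, 8.06 and 7.89 CPM in the tdTomato libraries. Its log2 fold change of 9.42 ± 0.25 (SE; adjusted p = 2.59e-09) was the largest among the genes named by size of change. Aqp4, the water channel of astrocyte endfeet, was at 10581, 10495, 11362 and 9223 CPM against 31.7, 22.8, 19.9 and 25.5 CPM (log2 fold change 8.70 ± 0.23, adjusted p = 2.59e-09). No library of either fraction came near the level of the other fraction for these genes. Mag, an adhesion protein of the innermost myelin layer, was at 49.8, 68, 145 and 115 CPM in the eGFP/tdTomato libraries and at 7873, 6336, 10399 and 8951 CPM in the tdTomato libraries (log2 fold change -6.47 ± 0.39, adjusted p = 1.74e-07). Mog, a protein of the outer face of myelin, was at 19, 11.8, 28.7 and 27.1 CPM against 1920, 1594, 2268 and 2183 CPM (log2 fold change -6.52 ± 0.32, adjusted p = 4.05e-08). The libraries of each fraction lay on 1 side for all 4 markers. The tdTomato fraction carried the oligodendrocyte markers as its label says, and the double-reporter fraction carried the astrocyte markers.

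**Figure D1:**
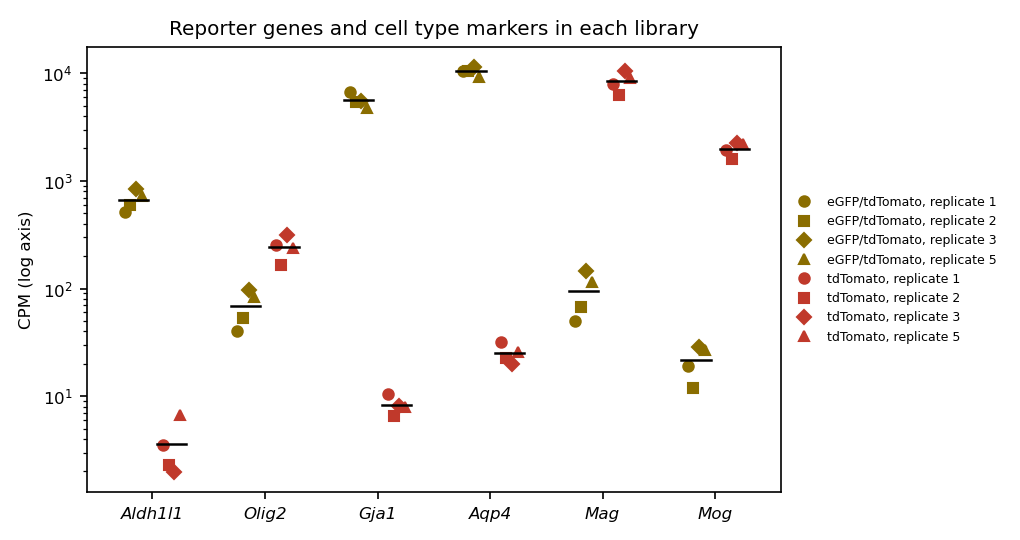
CPM of the 2 reporter genes and the 4 cell type markers in each of the 8 libraries, on a log axis. Each symbol is 1 library, its shape gives the replicate number, and the bar is the mean of 4. The eGFP/tdTomato libraries lie above the tdTomato libraries for Aldh1l1, Gja1 and Aqp4 and below them for Olig2, Mag and Mog, with no overlap.

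The stretch upstream of the start site is shown for 4 genes from the ends of the comparison: the connexin genes Gja1 and Gjb6, whose tdTomato level was 0.147% and 0.172% of the double-reporter level, and the myelin genes Mag and Mobp, whose double-reporter level was 1.13% and 1.24% of the tdTomato level. Sequences are from RefSeq on GRCm38.p6, 5′ to 3′ on the gene's strand, cut at the start of the gene model. Capitals mark matches, on either strand, to letters known to be bound by transcription factors. The letters searched were ACAAAG for SOX proteins, with AACAAT as their other form. For NFI proteins TTGGC was searched, for E-box factors CAGATG, and for AP-1 factors TGAGTCA. The windows are chr10:56377050-56377299 on the plus strand for Gja1, chr14:57133612-57133861 on the minus strand for Gjb6, chr7:30914874-30915113 on the minus strand for Mag and chr9:120149492-120149706 on the plus strand for Mobp.
Gja1: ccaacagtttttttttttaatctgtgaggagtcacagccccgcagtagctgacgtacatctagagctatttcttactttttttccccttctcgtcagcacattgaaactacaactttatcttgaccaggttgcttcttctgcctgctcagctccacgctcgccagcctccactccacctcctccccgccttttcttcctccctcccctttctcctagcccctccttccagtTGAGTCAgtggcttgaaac
Gjb6: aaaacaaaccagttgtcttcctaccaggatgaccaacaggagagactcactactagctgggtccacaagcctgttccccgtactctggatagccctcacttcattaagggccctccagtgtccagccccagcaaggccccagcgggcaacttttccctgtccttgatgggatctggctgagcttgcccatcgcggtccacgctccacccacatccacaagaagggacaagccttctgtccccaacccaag
Mag: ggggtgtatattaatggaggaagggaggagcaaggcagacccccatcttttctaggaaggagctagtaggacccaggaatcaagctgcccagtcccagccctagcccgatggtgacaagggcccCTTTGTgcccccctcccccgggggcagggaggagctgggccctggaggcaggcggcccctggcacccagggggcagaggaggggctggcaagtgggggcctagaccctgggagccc
Mobp: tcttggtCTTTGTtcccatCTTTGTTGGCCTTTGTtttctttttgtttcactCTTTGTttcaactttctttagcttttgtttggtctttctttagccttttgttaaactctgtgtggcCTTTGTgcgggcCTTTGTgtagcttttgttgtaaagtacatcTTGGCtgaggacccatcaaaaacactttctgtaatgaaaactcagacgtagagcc
The Mobp stretch holds ACAAAG 6 times and TTGGC 2 times, and in the run of capitals that joins them the matches overlap. The Mag stretch holds ACAAAG 1 time, the Gja1 stretch holds TGAGTCA 1 time, and the Gjb6 stretch holds none of the 5. Among 27025 mouse promoter windows of 250 bases, ACAAAG occurs in 16.5%, AACAAT in 9.65%, TTGGC in 41.9%, CAGATG in 14.5% and TGAGTCA in 4.43%. A match is a run of letters, not a measured site.

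Across all genes the fractions differed widely. Of 17425 genes tested, 9698 were called (55.7%), with 4775 higher in the eGFP/tdTomato libraries (27.4%) and 4923 lower (28.3%). Called and at least 2-fold higher were 3655 genes (21% of those tested), and called and at least 2-fold lower were 2618 (15% of those tested). The 4 libraries of one fraction lay wholly above or below the 4 of the other for 9325 genes (53.5%). The median log2 fold change over all genes was 0.03. Tested instead against a log2 fold change of 1, 2610 genes passed on the higher side and 1702 on the lower. Since most genes were called, the counts of the gene lists below are to be read against these percentages. The lists and families were chosen with earlier results of these data known, so their counts describe only the members taken. A gene could pass the filter through its higher fraction alone, so the list counts of calls cover tested members only. In sorted bulk RNA, a lower level cannot tell fewer cells of a type from less RNA in each cell.

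**Figure D2:**
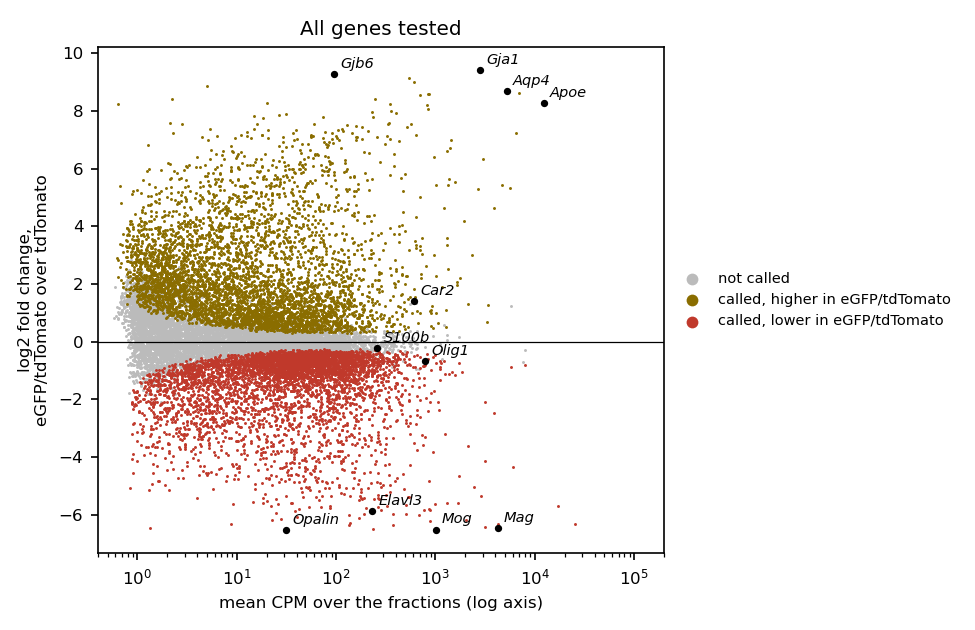
Log2 fold change of the 17425 genes tested (vertical axis) against the mean CPM of both fractions (horizontal log axis). Each point is 1 gene, coloured when called, and black points are genes described in the text. Called genes make up 55.7%, and the changes reach 9.42 upward for Gja1 and -6.55 downward for Opalin.

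The 15 protein-coding genes with the largest upward change were led by the astrocyte connexins. They were Gja1 and Gjb6, which make gap junctions, the zinc transporter gene Slc39a12, the angiotensinogen gene Agt, Aqp4, Sparcl1, Pla2g7, Acsbg1, Mlc1, Slc14a1, Tmem252, Apoe, Slc7a10, Slc6a11 and Slc4a4. Their log2 fold changes ran from 8.06 to 9.42. Gjb6, the second astrocyte connexin, was at 242, 148, 198 and 167 CPM in the eGFP/tdTomato libraries and at 0.49, 0.0283, 0.227 and 0.555 CPM in the tdTomato libraries. Apoe, the main lipid carrier protein made by astrocytes, was the most abundant of the 15, at 25556, 21585, 28679 and 22214 CPM against 99.8, 80.9, 75.1 and 61.9 CPM. Sparcl1, a secreted matrix protein, was at 13717 ± 1884 against 34.5 ± 8.76 CPM. Slc6a11, a GABA transporter, showed the widest spread of the group relative to its mean within the eGFP/tdTomato fraction, with 1170 and 1120 CPM in replicates 1 and 2 and 2392 and 1898 CPM in replicates 3 and 5. None of these values approached the tdTomato range of 4.48 to 6.5 CPM.

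The 15 protein-coding genes with the largest downward change were led by myelin genes. Opalin, a membrane protein of the myelin paranode, was at 0.429, 0.701, 0.448 and 1.03 CPM in the eGFP/tdTomato libraries and at 66.7, 40.9, 65.7 and 73.1 CPM in the tdTomato libraries (log2 fold change -6.55 ± 0.32, adjusted p = 3.86e-08). Among the others were Mog, Ermn, Mag, Cldn11, Apod, Tmem125, Mobp, Gjb1, Mal, Dmrta1, Ugt8a, Il23a and Nipal4, the last at -6.13. Cldn11, the claudin that seals the layers of the sheath, was at 5558, 4756, 7985 and 6535 CPM in the tdTomato libraries and at 46.1, 51.8, 106 and 86.3 CPM in the eGFP/tdTomato libraries. Ugt8a, which makes the galactolipids of myelin, was at 4053 ± 563 CPM against 55.5 ± 17.7. Dmrta1 and Il23a are not myelin genes. Dmrta1, a DMRT family transcription factor gene, was at 44.4 ± 7.64 CPM in the tdTomato libraries and at 0.462, 1.44, 0.275 and 0.266 CPM in the eGFP/tdTomato libraries, and without eGFP/tdTomato replicate 2 its log2 fold change of -6.20 became -7.03. Il23a, which encodes a cytokine subunit, was at 58.2, 47.5, 46.6 and 66.2 CPM in the tdTomato libraries and between 0.66 and 0.885 CPM in the others.

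Genes of astrocytes as a group were higher in the double-reporter fraction. Of 26 astrocyte markers, 24 were called higher and none lower, with a median log2 fold change of 6.38. All 18 genes of transmitter uptake and ion transport were called higher, with a median of 5.94. The glutamate transporter genes Slc1a2 and Slc1a3 were at 2758 ± 334 and 2585 ± 483 CPM against 26.4 ± 7.23 and 26.5 ± 6.43 CPM. Slc4a4, a sodium bicarbonate cotransporter, was at 1669 ± 282 against 6.23 ± 0.835 CPM, and Slc7a10, a carrier of small neutral amino acids, at 698 ± 155 against 2.29 ± 0.412 CPM. Gfap, the intermediate filament of astrocytes, was at 9919, 14428, 14733 and 12167 CPM against 71.3, 96.3, 90.9 and 85.3 CPM. In the tdTomato libraries the 24 markers called higher stood at a median of 1.01% of their eGFP/tdTomato mean, and at 1.15, 1.12, 0.626 and 0.985% in replicates 1, 2, 3 and 5.

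A few genes often used to mark astrocytes overlapped between the fractions, or were apart by a change far smaller than the medians above. S100b, a calcium-binding protein, was at 256, 179, 263 and 259.7 CPM in the eGFP/tdTomato libraries and at 305, 239, 299 and 279 CPM in the tdTomato libraries. Its groups overlapped, though it was lower in the eGFP/tdTomato library at each of the 4 replicate numbers, and it was not called (log2 fold change -0.23, 95% interval -0.56 to 0.10, adjusted p = 0.217). The gene overlaps Dip2a on the other strand over 23.7% of its span, and the strand setting of the counting is not given in the sources used here. Chrdl1, which encodes a secreted BMP antagonist, was low in both fractions at 5.74 ± 1.35 and 4.19 ± 0.728 CPM and was not called (adjusted p = 0.144). Kcnj10, the potassium channel Kir4.1, was called higher at a log2 fold change of only 1.21 ± 0.21, with 441 to 884 CPM in the eGFP/tdTomato libraries and 217 to 303 CPM in the tdTomato libraries. Gpr37l1, an orphan receptor, was at 387, 450.3, 1173 and 707 CPM against 296, 240.3, 463 and 298 CPM, and the groups overlapped. Its call (log2 fold change 1.07 ± 0.34, adjusted p = 0.0194) was lost without tdTomato replicate 1 (adjusted p = 0.0708), without tdTomato replicate 2 (0.0631) and without eGFP/tdTomato replicate 3 (0.077).

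Transcription factors of astrocyte development went with the double-reporter fraction, 21 of 23 called higher and none lower, with a median log2 fold change of 3.79. Id3, an inhibitor of basic helix-loop-helix factors, was at 540.0, 650.1, 893 and 688 CPM against 5.11, 6.76, 4.89 and 4.52 CPM. The other leading members were Hopx, an atypical homeobox gene (log2 fold change 6.82), Id4 (6.70) and Gli3, a zinc finger factor of the Hedgehog pathway (5.85). Gli3 varied most in the tdTomato libraries, between 0.0409 and 3.17 CPM, and without tdTomato replicate 5 its change was 6.55. Dbx2, a homeobox gene of intermediate progenitor domains, was at 222 ± 33.3 against 18.7 ± 2.27 CPM. Sox2, a factor of neural progenitors and glia, was at 58.6, 44.8, 70 and 61.6 CPM against 75, 32.4, 42.1 and 39 CPM, overlapping and not called (adjusted p = 0.294), but called higher without tdTomato replicate 1 (0.032). It lies within Sox2ot, a long noncoding RNA gene on the same strand. Tcf7l1 was not called either, at 26.6 ± 3.7 and 25.2 ± 7.14 CPM.

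The transcription factors of oligodendrocytes were mostly lower, 12 of 16 called lower and 3 called higher, with a median log2 fold change of -2.12. Myrf, the factor that switches on myelin genes, was at 7.49, 8.48, 11.2 and 15.2 CPM in the eGFP/tdTomato libraries and at 548, 331, 559.7 and 425 CPM in the tdTomato libraries (log2 fold change -5.46 ± 0.28, adjusted p = 6.36e-08). St18, Sox10 and Zfp488 fell by 5.35, 5.32 and 5.26 on the log2 scale. Olig1, the neighbour and relative of Olig2, separated the fractions far less. It was at 400.4, 411, 884 and 734 CPM in the eGFP/tdTomato libraries and at 1017, 623, 1226 and 1050 CPM in the tdTomato libraries, with overlapping ranges and no call (log2 fold change -0.69, 95% interval -1.33 to -0.05 without adjustment, adjusted p = 0.0635). It was lower in the eGFP/tdTomato library at each of the 4 replicate numbers, and it was called lower under 8 of the alternatives, among them DESeq2 (adjusted p = 0.0338) and limma-voom (0.0381). Olig2 itself was 3.54-fold lower and Sox10 40-fold lower. Of the 3 factors of this list that were called higher, those given here were chosen for naming after their values were seen. They were Prrx1, a homeobox gene (55.4 ± 4.54 against 4.5 ± 0.564 CPM), and the SoxD gene Sox5 (100.5 ± 9.11 against 33.5 ± 9.07 CPM).

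In the gene families taken here, members often lay on opposite sides. Of 21 families of related genes described here, 14 had members called in opposite directions, and in 11 of these a member on each side differed at least 2-fold. Over the 66 members taken from these families, 35 were higher, 23 lower and 8 not called. Of all genes tested, 27.4% were called higher and 28.3% lower. The families and their members were chosen with earlier results of these data known, so these counts do not bear on gene families in general. The connexins were the most divided. Gja1 and Gjb6, known as astrocyte connexins, were higher, and Gjc3 and Gjb1, known as oligodendrocyte connexins, were lower. Gjc3 was at 7.26, 8.56, 16.7 and 15.5 CPM in the eGFP/tdTomato libraries and at 670.3, 507, 763 and 596 CPM in the tdTomato libraries (log2 fold change -5.72). Gjb1 was at 3.45 ± 1.82 against 275 ± 61 CPM. Among the tight junction proteins, Cldn10 was 128-fold higher, Cldn12 2-fold higher and the myelin claudin Cldn11 85.6-fold lower.

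Gpm6a and Gpm6b encode membrane glycoproteins of neural cells. Per kilobase of exon, Gpm6a was at 741 CPM in the eGFP/tdTomato libraries and 73.1 CPM in the tdTomato libraries, and Gpm6b at 473 and 122 CPM. Both were called higher, at log2 fold changes of 3.34 ± 0.24 and 1.96 ± 0.12. Splits were seen among other families. The acyl-CoA synthetase genes Acsbg1 and Acsl6 were higher by 8.59 and 5.04 on the log2 scale, while Acsl1 fell by 5.12, Acsl3 by 1.43 and Acsl4 by 1.16. Ndrg2 was 39-fold higher and Ndrg1 14.2-fold lower.

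Receptors and surface proteins divided in the same way. The sphingosine 1-phosphate receptor gene S1pr1 was at 925, 794, 979.6 and 736 CPM in the eGFP/tdTomato libraries against 6.42, 8.58, 6.96 and 5.51 CPM, while S1pr5, the receptor of oligodendrocytes, was at 2.01, 1.92, 4.92 and 3.66 CPM against 144, 112, 231 and 198 CPM. Of the L1 family of adhesion molecules, Chl1 was 136-fold higher and Nrcam 3.75-fold higher, while Nfasc, which holds myelin to the axon at the paranode, was 33.1-fold lower and L1cam 3.48-fold lower. The link protein gene Hapln1 was called higher by 6.12 ± 0.55 and Hapln2, found at nodes of myelinated axons, lower by a log2 fold change of -5.74 ± 0.34. Hapln3 and Hapln4 were not called, though Hapln4 was called higher by DESeq2 (adjusted p = 0.0327) and without tdTomato replicate 2 (0.0475). Of the glutamate transporters, Slc1a1 was at 8.68 ± 3.07 against 373 ± 61 CPM and so lay on the other side from Slc1a2 and Slc1a3. Among the related receptors Gpr37 and Gpr37l1, Gpr37 fell by 1.86 on the log2 scale.

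The transcription factor families also split. Of the SoxE factors, Sox9, which is needed for the onset of gliogenesis, was at 716, 669, 746 and 604 CPM in the eGFP/tdTomato libraries and at 13.8, 17.4, 9.87 and 8.57 CPM in the tdTomato libraries. Sox10 ran the other way, at 6.99, 6.05, 13 and 24.9 CPM against 595, 349.8, 487 and 609 CPM. Sox8, the third of the family, was called lower by a smaller amount, at 84.5 ± 34.1 against 268 ± 67.8 CPM. Nkx6-1, a factor of ventral progenitors, was at 15.1 ± 1.24 against 0.686 ± 0.218 CPM, and its relative Nkx6-2 at 0.847 ± 0.182 against 29.8 ± 9.58 CPM. In the families of fatty acid binding proteins, lactate dehydrogenases, aldolases, GABA and glycine transporters and sodium pump beta subunits no member taken was called lower by edgeR. Among these, the beta subunit gene Atp1b2 was at 2875 ± 525 against 22.5 ± 4.48 CPM, and Atp1b3, which was not called, was called lower without tdTomato replicate 2 or eGFP/tdTomato replicate 3. Fabp7 was 18.1-fold higher, Ldhb 9.39-fold higher, and Ldha overlapped between the fractions at 408 ± 102 and 361 ± 71.4 CPM. Ndrg3, called higher at 0.45 ± 0.15 (adjusted p = 0.0234), lost the call without tdTomato replicate 1 (0.135), tdTomato replicate 2 (0.0654) or eGFP/tdTomato replicate 3 (0.138).

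**Figure D3:**
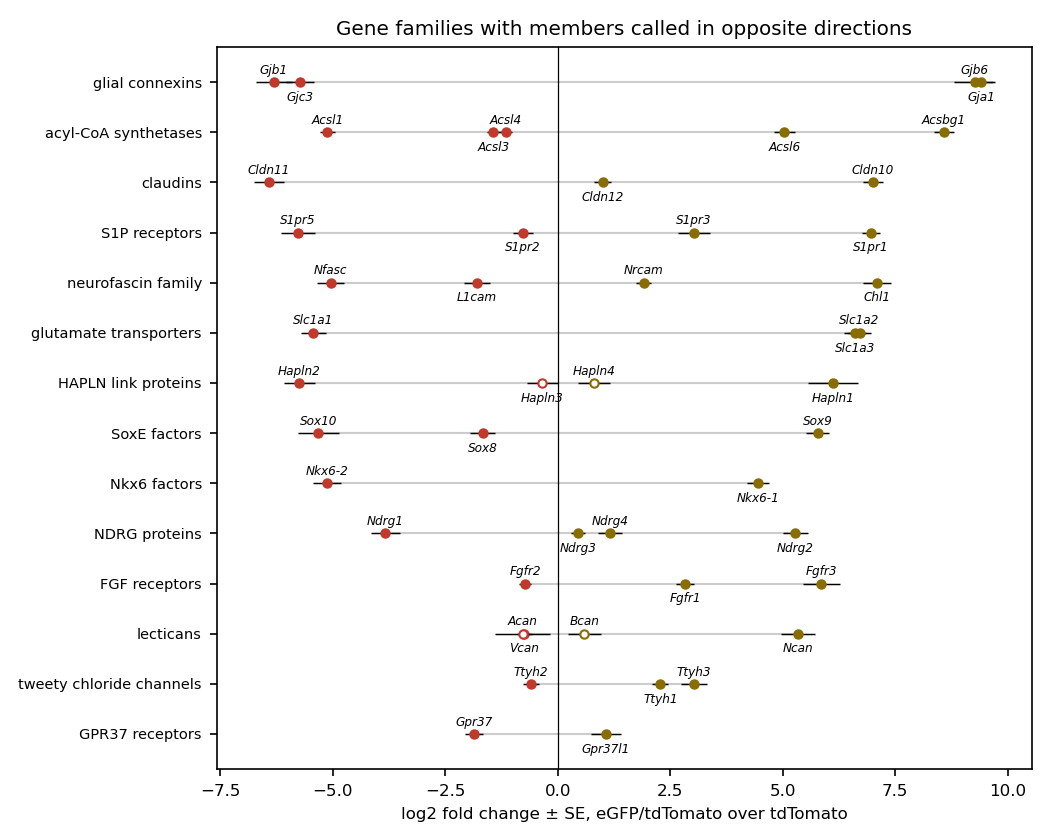
Log2 fold change with its SE (horizontal axis) of each member taken from the 14 gene families whose members were called in opposite directions. Filled points are called members and open points are not called. The widest gap is that of the glial connexins, from -6.31 for Gjb1 to 9.42 for Gja1.

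Myelin genes were nearly all lower in the double-reporter fraction, and their level relative to the tdTomato fraction differed by list. Of 34 genes of myelin and mature oligodendrocytes, 31 were called lower and 1 higher, with a median log2 fold change of -5.73. All 19 tested genes of differentiating oligodendrocytes were called lower, with a median of -4.26. Of 20 progenitor genes, 13 were called lower and 4 higher, with a median of -1.36. Among the members called lower, the eGFP/tdTomato level was a median 1.83% of the tdTomato mean for myelin genes, 5.21% for differentiating genes and 13.9% for progenitor genes. By replicate 1, 2, 3 and 5 the myelin median was 1.14, 1.35, 2.36 and 2.17%, the differentiating median 5.05, 3.5, 4.3 and 5.35%, and the progenitor median 17, 20, 8.9 and 17.5%. The medians of the 3 lists kept this order in each library. They cover only members called lower in these same data, and the progenitor members spread widely, with quartiles of 3.33 and 35.4%. The order is thus one of these lists, not of the stages themselves. The progenitor median was lowest in replicate 3, where the myelin median was highest.

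Of the myelin genes, 20 of the 31 called lower stood under 2% of their tdTomato mean, among them Mal at 23 ± 2.78 against 1735 ± 118 CPM. Mbp, the basic protein that compacts myelin, was at 369, 459.7, 914 and 836 CPM in the eGFP/tdTomato libraries and at 33025, 25846, 42036 and 34471 CPM in the tdTomato libraries. Enpp2, the lipid-processing enzyme autotaxin, was at 323 ± 44.9 against 3960 ± 556 CPM, a smaller gap. Cnp, an enzyme of non-compact myelin that overlaps Dnajc7 on the other strand, was at 559.8 ± 172 against 11518 ± 2251 CPM. The exceptions were named after their values were seen. Car2, carbonic anhydrase, was the myelin list member called higher, at 1124, 731, 707 and 994 CPM against 314, 286, 293 and 461 CPM (log2 fold change 1.39 ± 0.21, adjusted p = 0.000187). Cmtm5 and Aspa were not called, at 279 ± 53 and 97.4 ± 8.99 CPM in the eGFP/tdTomato libraries and 348 ± 64.8 and 119 ± 26.6 CPM in the tdTomato libraries. Cmtm5 was lower at each of the 4 replicate numbers and was called lower without tdTomato replicate 2 (adjusted p = 0.0366) or eGFP/tdTomato replicate 3 (0.0373), and Aspa without tdTomato replicate 2 (0.0201). Qdpr was called lower by only 1.39-fold, and Cryab by 1.29-fold at an adjusted p of 0.0498. The Cryab call was lost without eGFP/tdTomato replicate 2 (0.0755), tdTomato replicate 3 (0.12) or eGFP/tdTomato replicate 5 (0.116).

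The differentiating stage was represented by Enpp6, Bmp4 and Bcas1 among others. Enpp6, a choline phosphodiesterase of newly formed oligodendrocytes, was at 27.6, 29.8, 55.2 and 45.1 CPM in the eGFP/tdTomato libraries and at 1832, 2004, 2294 and 1679 CPM in the tdTomato libraries (log2 fold change -5.63 ± 0.27, adjusted p = 3.54e-08). Elovl7, a fatty acid elongase, was at 11.5 ± 1.66 against 735 ± 90.5 CPM, and Tmem88b, a membrane protein, at 9.85 ± 4.76 against 524 ± 121 CPM. Fyn, a kinase of early myelination, stood at 143 against 1431 CPM on average. Ddr1, a collagen receptor, had the smallest change of the list, at 155 against 326 CPM.

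The progenitor genes were mixed. Gpr17, a receptor of committed progenitors, was at 8.58, 14, 40 and 35.3 CPM in the eGFP/tdTomato libraries and at 872, 643, 1554 and 1046 CPM in the tdTomato libraries. It lies within the span of Lims2 on the other strand, which also fell, by 5.09 on the log2 scale. Spans include introns, so whether these genes share reads is not known without the strand setting. Neu4, a sialidase, was at 6.46 ± 2.16 against 206 ± 31.5 CPM and Matn4, a matrix protein, at 5.23 ± 2.73 against 157 ± 32.4 CPM. The classical progenitor receptors were named after their values were seen. Pdgfra was at 8.61, 10.9, 4.41 and 5.09 CPM against 181, 337, 155 and 106 CPM (log2 fold change -4.75 ± 0.42, adjusted p = 3.68e-06). Cspg4, the NG2 proteoglycan, was at 11.7, 11.6, 12.4 and 11.3 CPM against 65.9, 67.5, 56.7 and 41.3 CPM, a smaller change of -2.30 ± 0.17. The members called higher, Tmem100 (377 ± 42.8 against 50.3 ± 16.4 CPM), Kcnip3 (424 ± 101 against 68 ± 13.9 CPM), Cspg5 (172 ± 46 against 68.9 ± 25.5 CPM) and Rlbp1 (38.2 ± 6.07 against 24.1 ± 7.97 CPM), were named after their values were seen. Of these, Rlbp1 overlapped between the fractions and lost its call without replicate 1, 3 or 5 of either fraction (adjusted p from 0.0692 to 0.109).

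**Figure D4:**
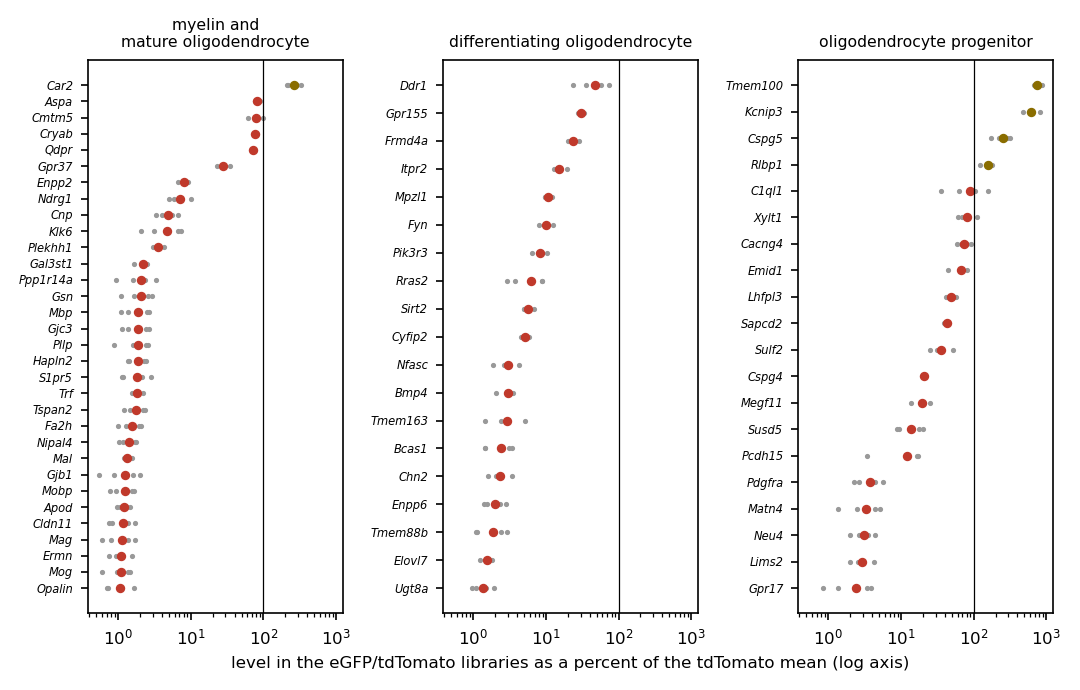
Level in the eGFP/tdTomato fraction as a percent of the mean tdTomato level (horizontal log axis) for tested genes of 3 lists of the oligodendrocyte lineage. Grey points are the 4 eGFP/tdTomato libraries and large points their mean, red under 100% and olive above it, whether called or not. Most of the myelin genes lie under 2%, while the progenitor genes spread from 2.38% for Gpr17 to above 100%.

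Lipid genes differed by branch. Of 22 genes of cholesterol synthesis, 19 were called lower and 1 higher, with a median log2 fold change of -0.82, so most changes were under 2-fold. Ebp, a sterol isomerase, was at 30.2, 28.1, 36.8 and 30.5 CPM in the eGFP/tdTomato libraries and at 143, 167, 189 and 173 CPM in the tdTomato libraries, a fall of 2.42 on the log2 scale. Lss and Hsd17b7, also enzymes of the steps after squalene, fell by 2.10 and 1.81. Tm7sf2, a sterol reductase, was the member called higher, at 212 ± 46 against 73.6 ± 12.2 CPM. Of 18 genes of sphingolipid and long-chain fatty acid synthesis, 6 were called higher and 8 lower. The desaturase genes Fads2 and Scd1 were at 1218 ± 372 and 863 ± 132 CPM against 61.4 ± 14.3 and 52.4 ± 10.1 CPM, with Fads1 and Elovl5 also higher at 1.99 and 1.57 on the log2 scale. The genes called lower held Gltp, a glycolipid transfer protein (117 ± 17.8 against 1391 ± 106 CPM), and Cers2, the ceramide synthase of very long chains (153 ± 14.1 against 1111 ± 157 CPM).

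Fatty acid oxidation went the other way from cholesterol synthesis, with 14 of 16 genes called higher, none lower and a median log2 fold change of 1.48. Cpt1a, which admits fatty acids to mitochondria, was at 119, 116, 187 and 145 CPM against 6.13, 6.85, 10.3 and 10.1 CPM. Acaa2, a thiolase, was 25.5-fold higher, Acot11, a thioesterase, 49.4-fold and Ppara, the receptor that controls this pathway, 15.5-fold. Of 14 serine and one-carbon enzymes, 8 were called higher and 4 lower, with a median of 0.44. The first and second steps of serine synthesis took opposite sides. Phgdh was at 564, 634, 831 and 678 CPM in the eGFP/tdTomato libraries and at 136, 94, 146 and 93.7 CPM in the tdTomato libraries, and Psat1 at 119.8, 101, 137 and 110.5 CPM against 656, 563, 622 and 565 CPM. Gldc, of the glycine cleavage system, was 4-fold higher and Mthfd1l, a mitochondrial folate enzyme, 4.42-fold lower. The count of 8 became 5 without tdTomato replicate 1 or without eGFP/tdTomato replicate 3.

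In 4 signalling pathways the members called higher in the double-reporter fraction outnumbered those called lower. In the Notch pathway 12 of 19 tested genes were called higher and 4 lower, with a median log2 fold change of 1.40. Among its receptors, Notch3 was at 70.1, 84.7, 168 and 125 CPM against at most 1.82 CPM, and Notch2 at 217 ± 45 against 8.67 ± 1.16 CPM. Lfng, a glycosyltransferase that modifies Notch, was at 21.5, 28.9, 62.8 and 51.3 CPM against at most 0.516 CPM, and the target gene Hey2 at 88.8 ± 17.6 against 1.27 ± 0.213 CPM. The genes called lower were the ligands Dll3 and Dll1, the glycosyltransferase gene Mfng and Rbpj, the DNA-binding partner of the receptor, named after their values were seen. Rbpj was at 17, 18, 29.6 and 19.7 CPM against 59, 39.3, 67.5 and 54.1 CPM. The ranges of Dll1 overlapped, and its call (adjusted p = 0.017) was lost without eGFP/tdTomato replicate 5 (0.0523).

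In the Hedgehog pathway 7 of 12 tested genes were called higher and 2 lower, with a median of 1.43. The signal transducer Smo was at 51.1, 54.6, 95.2 and 77.8 CPM against 4.99, 1.64, 4.56 and 2.7 CPM. The coreceptor gene Boc was 43.5-fold higher, and the effectors Gli2 and Gli1 were at 17.4 ± 4.39 and 8.08 ± 2.46 CPM against 0.376 ± 0.393 and 0.271 ± 0.343 CPM. Without tdTomato replicate 5 the log2 fold change of Gli2 went from 5.53 to 6.25 and that of Gli1 from 4.89 to 5.76. The genes called lower were Hhip, which binds and blocks the ligand (42.5 ± 6.96 against 259 ± 22.2 CPM), and the coreceptor gene Cdon. Transcripts of the ligands Shh, Ihh and Dhh were under 1 CPM on average in both fractions and were not tested.

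In the BMP and TGF-beta pathway 14 of 25 tested genes were called higher and 4 lower, with a median of 1.49. Tgfb2, a ligand, was at 182, 190.5, 223 and 151 CPM against 8.91, 9.68, 5.76 and 4.28 CPM. Nog, a secreted BMP antagonist, was at 17.5 ± 4.76 against 0.534 ± 0.208 CPM, and the ligand gene Bmp6 at 6.06 ± 1.54 against 0.296 ± 0.446 CPM. Without tdTomato replicate 5, which alone reached 0.952 CPM, the log2 fold change of Bmp6 went from 4.38 to 6.02. Smad9, a transducer of BMP signals, was 14.6-fold higher. The members called lower were Smad7, an inhibitor of the pathway, at 4.93 ± 0.864 against 52.4 ± 11.6 CPM, Bmp2, Tgfbr1 and Smad2.

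Growth factor receptors split within families. Of 22 tested genes of FGF, PDGF and EGF signalling, 15 were called higher and 6 lower, with a median of 1.94. Egfr was at 135, 107, 163 and 110.0 CPM in the eGFP/tdTomato libraries and at 4.86, 5.55, 1.52 and 3.49 CPM in the tdTomato libraries. Erbb3, a receptor for neuregulin, was at 2.9, 3.91, 2.75 and 4.59 CPM against 88.1, 65.8, 105 and 98.1 CPM. Erbb2, which pairs with Erbb3, was higher at 40.1 ± 9.87 against 1.29 ± 0.54 CPM, and Erbb4 was called lower by 1.93-fold. Of the FGF receptors, Fgfr3 was at 186, 239, 625 and 475 CPM against 5.52, 6.09, 7.74 and 6.94 CPM, Fgfr1 was 7.17-fold higher and Fgfr2 1.65-fold lower. The Fgfr2 gene model overlaps 30 tested genes, some on the other strand, over up to 52.5% of its span, introns included. Whether it shares reads with them is not known. Among ligands, Pdgfd was at 119 ± 14 against 0.595 ± 0.486 CPM and Pdgfa at 7.14 ± 1.05 against 82 ± 9.94 CPM. Without tdTomato replicate 2 the log2 fold change of Pdgfd went from 7.56 to 8.17. The EGF family ligand gene Tgfa was at 17 ± 3.41 against 304 ± 54.3 CPM.

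Genes of contact with neurons and other cells showed both directions. Of 22 tested glutamate receptor genes, 10 were called higher and 6 lower, with a median of 0.51. Grm3, a metabotropic receptor of astrocytes, was at 403, 274, 372 and 219 CPM against 3.15, 2.72, 1.52 and 1.98 CPM. The kainate receptor gene Grik3 was 21-fold lower and Grm4 16.9-fold lower, while the NMDA receptor gene Grin2b was called higher by 3.86 ± 0.57. Without tdTomato replicate 5, whose level was 4.84 CPM, the change of Grin2b was 4.64. Axon guidance genes were divided almost evenly, 16 of 33 higher and 15 lower. Sema5a, a semaphorin of oligodendrocytes, was at 18.3 ± 2.18 against 685 ± 118 CPM and the semaphorin receptor gene Plxnb3 at 15.7 ± 6.06 against 626 ± 225 CPM. The Slit receptor gene Robo2 was at 196 ± 23.3 against 6.78 ± 1.1 CPM, and the ephrin gene Efna5 at 29.2 ± 8.56 against 0.652 ± 0.562 CPM. Efna5 went from 5.51 to 6.17 on the log2 scale without tdTomato replicate 5.

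Of 20 genes of matrix proteoglycans, tenascins and related molecules, 13 were called higher and 2 lower, with a median of 3.46. Ncan, a lectican of the perisynaptic matrix, was at 13583, 10586, 10167 and 9209 CPM against 222, 489.6, 198 and 167 CPM. Tnc was at 719 ± 168 against 2.84 ± 1.37 CPM and its relative Tnr at 26.8 ± 9.78 against 939 ± 256 CPM, so the tenascins took opposite sides. Sdc4, a syndecan, was 246-fold higher. Bcan, another lectican, was abundant in both fractions, at 761, 1046, 2374 and 1730 CPM against 873, 550.2, 1541 and 956 CPM, and was not called (adjusted p = 0.199). Of 14 genes of phagocytosis, 10 were called higher and 2 lower, with a median of 2.32. Axl, a receptor for dying cells, was at 239.7 ± 67.2 against 3.23 ± 0.549 CPM, the integrin gene Itgb5 at 55.9 ± 14 against 0.668 ± 0.277 CPM, and the lipid exporter gene Abca1 at 274 ± 66.4 against 5.2 ± 1.13 CPM. Tyro3, of the same receptor family as Axl, was lower at 12.2, 14.9, 34 and 27.2 CPM against 174, 87.6, 242 and 199 CPM, as was the bridging ligand Gas6.

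Of 29 cell cycle genes, 1 was called higher and 5 lower (20.7% called, beside 55.7% of all genes), with a median log2 fold change of -0.27. Top2a, a topoisomerase of dividing cells, was at 54, 54.1, 36.5 and 40.5 CPM against 66.5, 93.9, 45.8 and 41 CPM, with overlap and no call (adjusted p = 0.185), though it was the lower at each of the 4 replicate numbers. Mki67 was at 36.1, 28.4, 31.6 and 24.9 CPM against 63.7, 64.3, 34.2 and 32.5 CPM, and its call (adjusted p = 0.0344) was lost without tdTomato replicate 1 (0.0829), tdTomato replicate 2 (0.0835), eGFP/tdTomato replicate 2 (0.0822) or eGFP/tdTomato replicate 5 (0.0941). Ube2c and Birc5, of mitosis, were called lower by 1.64-fold and 1.74-fold. With the percentage of reads outside genes as a covariate, 1 member of the list was called lower in place of 5, and without tdTomato replicate 2, 3 members were called higher in place of 1.

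Transcription factors that pattern the dorsal and ventral cord were low in the tdTomato fraction, and many were under the level needed for a test. The dorsal list summed to 104 to 151 CPM in the eGFP/tdTomato libraries and 8.61 to 12.9 CPM in the tdTomato libraries. The ventral list summed to 93.3 to 102 against 10.9 to 19.3 CPM. Of 18 dorsal factors 9 were tested, of which 8 were called higher and 1 lower. Msx1, a target of BMP in the dorsal cord, was at 17.6, 26.9, 31.4 and 28.7 CPM against 0.817, 0.679, 0.615 and 1.03 CPM. Msx2, Zic1 and Zic5 were at 12.6 ± 6.03, 17.7 ± 3.01 and 14 ± 1.69 CPM against less than 1 CPM, and Zic1 overlaps Zic4 on the other strand. Of 14 ventral factors 7 were tested, of which 4 were called higher and 1 lower, and 7 were called higher without tdTomato replicate 5, where more members passed the filter on low levels. Pax6, of the ventral and intermediate cord, was at 55.9, 59.2, 69.6 and 57 CPM against 4.21, 5.29, 2.75 and 3.05 CPM. The members called lower, Gsx1 of the dorsal list and Nkx2-9 of the ventral list, were at 4.34 ± 0.97 and 3.68 ± 0.917 CPM in the tdTomato libraries and at 0.198 ± 0.0661 and 0.115 ± 0.115 CPM in the others. Since a gene could pass the filter through its higher fraction alone, these counts cover the tested members only.

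Markers of other cell types that a sort could carry were measured for their whole lists. Neuronal genes were led downward by Elavl3, an RNA-binding protein of neurons, at 6.4, 7.64, 7.26 and 9.48 CPM in the eGFP/tdTomato libraries and at 541, 396, 457 and 411 CPM in the tdTomato libraries. Dcx, Elavl4 and Uchl1 were 11.4-fold, 5.78-fold and 5.4-fold lower. Of 18 tested neuronal genes 4 were called higher and 8 lower, and the 4 became 2 without tdTomato replicate 1, eGFP/tdTomato replicate 1, tdTomato replicate 3 or eGFP/tdTomato replicate 5. The list summed to 441 to 522 CPM in the eGFP/tdTomato libraries and 975 to 1271 CPM in the tdTomato libraries, while the defining neuronal genes Rbfox3, Syt1, Nefl and Nefm were between 2.5 and 6.41 CPM on average in both. Map2, the most abundant member, was at 353 ± 37.1 and 394 ± 78 CPM and was not called. Of 8 motor neuron genes 2 were tested, and they lay on opposite sides. Slc5a7, the choline transporter of motor neurons, was called lower, at 54.9 ± 10.6 CPM in the tdTomato libraries and 2.63 ± 0.646 CPM in the others. The other tested member had a log2 fold change of 1.81 and was not called. Isl1, Isl2, Mnx1 and Lhx3 were under 1 CPM in both fractions. The part of neurons in the results was not tested.

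Microglial and vascular markers were low. The microglial list summed to 85 to 104 CPM in the eGFP/tdTomato libraries and 38 to 63.6 CPM in the tdTomato libraries, with 3 of 14 tested genes called higher and 2 lower (35.7% called). The macrophage receptor gene Mrc1 was at 5.24 ± 0.7 against 0.712 ± 0.517 CPM. Cx3cr1 and Csf1r, which define microglia, were at 3.39 and 4.7 CPM against 3.6 and 6.69 CPM on average and were not called. P2ry12, another microglial gene, leaned the other way, at 9.63 ± 1.26 against 6.66 ± 2.63 CPM. It was higher at each of the 4 replicate numbers and was not called (adjusted p = 0.143). Its span lies within Med12l on the other strand. The 2 calls on the lower side were lost without eGFP/tdTomato replicate 1, tdTomato replicate 3 or eGFP/tdTomato replicate 5, and 1 was lost without eGFP/tdTomato replicate 3 or tdTomato replicate 5. The endothelial list summed to 64.1 to 87.4 against 76.1 to 119 CPM, with 2 of 10 tested genes called in each direction. Its count on the higher side was 1 without replicate 2 of either fraction and 4 without tdTomato replicate 5. The endothelial genes Cldn5 and Pecam1 were at 1.74 and 2.03 CPM against 0.82 and 0.964 CPM.

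Mural cell and fibroblast genes had 7 of 9 tested members called higher, and in the eGFP/tdTomato fraction most of their sum came from Col1a2. That collagen gene was at 304, 332, 476 and 395 CPM in the eGFP/tdTomato libraries and at 5.93, 3.57, 2.46 and 3.73 CPM in the tdTomato libraries. Its partner chain gene Col1a1 was at 11.5 ± 2.57 against 3.61 ± 1.33 CPM, and the list summed to 345 to 505 against 8.35 to 20.9 CPM. Rgs5, a gene of pericytes, was at 5.96 ± 1.37 against 1.36 ± 1.14 CPM, and its log2 fold change went from 2.11 to 2.86 without tdTomato replicate 2. The 7 calls became 3 with the percentage of reads outside genes as a covariate and 3 or 4 without replicate 1 or 2 of either fraction or without tdTomato replicate 3. Ependymal genes had 5 of 10 tested members called higher (50%, beside 55.7% of all genes called). Their list summed to 23.7 to 46.3 against 7.19 to 23.3 CPM. Of the 14 ependymal members, 10 were under 1 CPM on average in the tdTomato fraction and 4 in the eGFP/tdTomato fraction. For the 14 mural and fibroblast members these counts were 8 and 3. Members could thus pass the filter through the eGFP/tdTomato fraction alone, and the calls cover tested members only. Schwann cell genes had 3 of 5 called higher, Drp2, Egr2 and Prx. The 5 tested erythrocyte genes had adjusted p-values of 0.392 or above in edgeR's quasi-likelihood test, and Hba-a1 was at 33.2 and 31.2 CPM on average in the 2 fractions; without tdTomato replicate 1, 1 member was called higher. The part of these cell types in the results was not tested.

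Immediate early genes, which respond to stimulation within minutes and can be induced while tissue is dissociated, moved with the fraction. Of 21 genes of this list 16 were called higher and 2 lower, with a median log2 fold change of 3.31. Fos was at 2616, 2683, 2836 and 2319 CPM in the eGFP/tdTomato libraries and at 76, 87.5, 53.3 and 26.2 CPM in the tdTomato libraries. Junb was at 244, 349, 416 and 309 CPM against 6.05, 11.2, 7.7 and 4.24 CPM, and Btg2, an antiproliferative gene of the same response, at 874 ± 269.7 against 17.1 ± 6.64 CPM. Socs3, a feedback inhibitor of cytokine signalling, was 59.4-fold higher. The heat shock genes Hspa1a and Hsp90aa1 were the 2 called lower, and Hspa1a shares near-identical sequence with Hspa1b. The list summed to 6418 to 7594 CPM against 976 to 1233 CPM, and its part in the other differences was not tested.

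**Figure D5:**
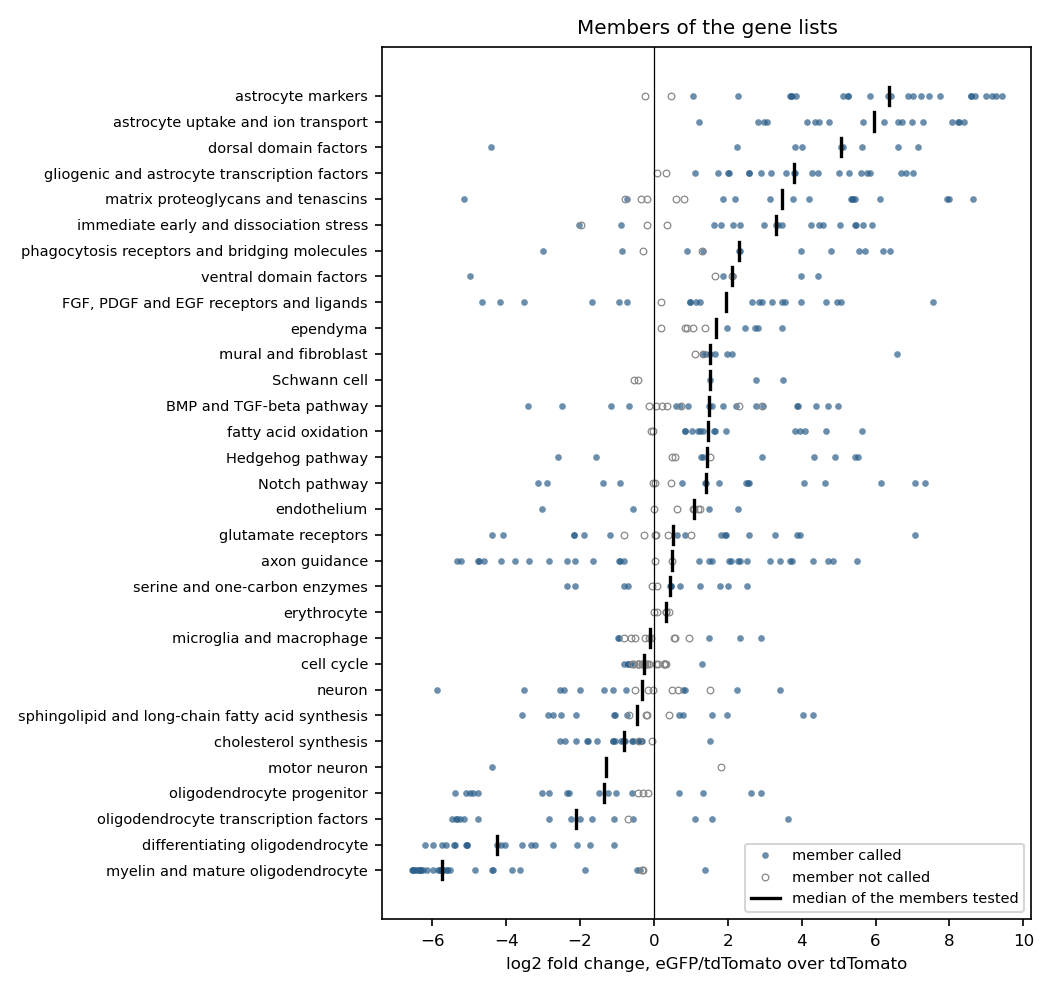
Log2 fold change (horizontal axis) of every tested member of the 31 gene lists, ordered by median. Filled points are called members, open points are not called, and the black bar is the median of the list. Medians run from -5.73 for myelin genes to 6.38 for astrocyte markers, while cell cycle and erythrocyte genes lie near 0.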

How the data were processed

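Reads of the sorted cells were aligned with STAR and counted per Ensembl gene with HTSeq on GRCm38, per the submitters' processing notes, and the raw counts were deposited by the authors as 1 file per library. Versions, the annotation release, the strand setting and filters are not given in the sources used here. Each file held 53465 genes and 5 lines that name no gene. Those lines, which held the reads outside genes, ambiguous reads and reads aligned at several places, stayed out of library sizes and tests. Gene names and positions were taken from GENCODE M21, where 53360 of the identifiers (99.8%) were found.

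The 8 libraries were fitted in edgeR 4.0.16 (R 4.3.3; TMM factors 0.891 to 1.134, robust quasi-likelihood F-test) with the fraction as the only factor, after keeping genes with at least 1 CPM in 4 or more libraries. Fitting only these groups keeps the spread of the third fraction out of the test. Standard errors of log2 fold changes were obtained by dividing the change by the root of the F statistic. The spread of levels is given by the SD of 4 libraries, and the precision of a log2 fold change by its SE.

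Named genes are the reporters, the 4 markers, the 15 protein-coding genes per direction with the largest called change (at least 20 CPM in the higher fraction, no overlap of libraries), up to 4 called members per list (at least 5 CPM) and the most abundant member not called, and the family members. Some others were named after their values were seen, and some genes that the rule or a list holds are not reported here, though they stayed in the fit and in the counts over lists. The gene lists, the families and their members were chosen with earlier results of these data known. An overlap with another tested gene was found for 66 of 222 genes checked, and for 17 it covered 20% or more of the gene's span, introns included. Alternatives used DESeq2 1.42.0, limma 3.58.1, other filters and scalings, a covariate, a replicate block, all 12 libraries and fits with libraries left out.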

Additional observations from a re-analysis of the deposited data

Results flagged for a closer look

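In 14 of the 444 groups of 4 libraries examined for named genes, 1 library stood far from the other 3. Chance flags about 1 in 20 such groups. In the tdTomato fraction, replicate 2 was apart in 5 cases: Apod at 481 CPM (others 815 to 832), Atp1b1 at 9.09 CPM (4.68 to 4.86), Ncan at 489.6 CPM (167 to 222), Rgs5 at 3.06 CPM (0.712 to 0.899) and S1pr3 at 1.44 CPM (0.583 to 0.714). In tdTomato replicate 5, Car2 was at 461 CPM (286 to 314) and Slc14a1 at 2.06 CPM (1.22 to 1.31). Mlc1 was at 5.23 CPM in tdTomato replicate 1 (3.01 to 3.33).

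In the eGFP/tdTomato fraction, replicate 3 was apart for Hey2 at 115 CPM (78.7 to 82.6) and Pdgfa at 8.71 CPM (6.58 to 6.64). Replicate 2 was apart for Dmrta1 at 1.44 CPM (0.266 to 0.462) and S100b at 179 CPM (256 to 263). Replicate 5 was apart for Gsx1 at 0.0998 CPM (0.221 to 0.241) and replicate 1 for Atp1b1 at 60.8 CPM (82.7 to 83.6). For Ncan, Apod, Slc14a1, Mlc1 and Hey2 the fractions remained many-fold apart with the outlying library counted.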

How the results depend on the processing

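The counts of 4775 higher and 4923 lower genes stayed within 1.5 times under the alternatives, except that 2610 and 1702 genes passed a test against a log2 fold change of 1. With 1 library left out the counts were 4187 to 5252 and 4386 to 5407, and no call shared with the full fit changed sign in any alternative. The share of calls on the higher side was 49.2%, 60.5% in the test against a log2 fold change of 1 and 57.1% with no filter on low counts, where the median over all genes was 1.00 in place of 0.03 (0.25 with edgeR's filterByExpr). With a replicate block the counts were 5534 and 5347. The labels call the shared number a set without saying what a set shares. Same-numbered libraries correlated at 0.08, 0.168, 0.588 and 0.335 in their deviations from the group means, all positive. Differently numbered libraries correlated at -0.499 to 0.369, and most of these values were negative. Replicates 1 and 2 did not correlate best with their own number. Since the labels do not state a shared source and 1 pair correlated weakly, the pairing was not used for the calls. The calls of some genes depend on that choice. Of 204 called genes among the 222 named, 89 values over all alternatives lost the call, and 187 of the named genes kept 1 call throughout. Of the 18 named genes that were not called, 8 gained a call under at least 1 alternative (21 values in all), and 10 had 1 direction at all 4 replicate numbers. With the replicate block, Olig1 (adjusted p = 0.00488), Cmtm5 (0.0242) and Top2a (0.0487) were called lower and Bcan (0.0341) higher, and Cryab lost its call (0.054). The sign of 2 genes that were not called turned, and the cause was not tested. Enpp5 was -0.06 with filterByExpr, -0.09 without both libraries numbered 1 (an alternative chosen after seeing the data) and between -0.13 and 0.18 with 1 library left out (below 0 without tdTomato replicate 1 or 5 or eGFP/tdTomato replicate 3, at -0.13, -0.04 and -0.05). Tcf7l1 was -0.05 with filterByExpr, -0.09 without both libraries numbered 3 and between -0.17 and 0.16 with 1 library left out (below 0 without eGFP/tdTomato replicate 3, at -0.07, or tdTomato replicate 5, at -0.17). Of 1364 list counts, 1286 stayed within 1.5 times. Of genes with a mean under 2 CPM 28.4% were called, beside 54.1% from 2 to 10 CPM and 65.3% at 10 CPM or more; the part of depth in this was not tested.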

Other observations

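The classes of gene differed in how they divided between the fractions. Of 14200 protein-coding genes tested, 58.4% were called, 28.1% higher in the eGFP/tdTomato libraries and 30.2% lower. Of 526 long intergenic noncoding RNA genes 29.3% were higher and 17.9% lower, and of 521 antisense genes 29.4% were higher and 17.5% lower. Processed pseudogenes ran the other way, with 12.4% of 485 higher and 29.3% lower. Without the strand setting, the reads of an antisense gene and its partner cannot be told apart. For processed pseudogenes the limit is a different one, near-identical sequence in the parent gene. Reads aligned at several places stayed out of the tests, and whether the remaining pseudogene reads came from parent genes was not tested. These shares were not tested against each other. Reads outside annotated genes made up 25.6 to 42.5% in the eGFP/tdTomato files and 21.2 to 31.5% in the tdTomato files. Their part in these shares was not tested.

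Fabp5, a fatty acid binding protein, and Aldoa, a glycolytic enzyme, were above 100 CPM in every library of both fractions. Fabp5 was at 411, 390.0, 732 and 512 CPM in the eGFP/tdTomato libraries and at 200.4, 142, 239 and 176 CPM in the tdTomato libraries, and Aldoa at 627 ± 60.7 and 439.8 ± 43.3 CPM. Aldoc, the astrocyte aldolase, was at 7617, 5585, 5379 and 5021 CPM against 79.2, 76.4, 71.3 and 63.5 CPM. Of the ectonucleotide pyrophosphatase family, Enpp4 was 4.87-fold lower, while Enpp5 was at 151 ± 10.5 and 144 ± 37.6 CPM.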
